A study of Mus musculus with 6 samples.

Results

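The 8 mouse mucin genes Muc1, Muc2, Muc4, Muc5ac, Muc5b, Muc6, Muc13 and Muc20 were examined for 2 histone marks in colonic organoids. The 8 members were taken by name from the GENCODE annotation of GRCm38, which holds 55341 gene symbols, 21924 of them protein-coding. A promoter was defined as 1000 bp on each side of every annotated transcript start of a gene. The stretch of chromosome 7 from Muc6 through Muc2 and Muc5ac to Muc5b was measured as a whole. The organoids were cultures of colon epithelial cells of C57BL/6 mice, kept either without TNFα (wt) or with TNFα at 40 ng/ml for 3 weeks (wt+TNFα). H3K4me3, found at active promoters, and H3K27me3, laid down by Polycomb complexes at repressed chromatin, were mapped by ChIP-seq with 1 library per mark and condition. Each condition had 1 input library, which served the peak caller and is not otherwise used here. With 1 library per mark and condition, a difference between wt and wt+TNFα has no replicate check. No test was therefore possible, and the values stand without an error. The values are called peaks in 4 lists, with a fold enrichment over local background and a −log10 q for each peak. Both were computed within a library, so they are used below to rank a peak within its own list. A fixed −log10 q of 2 is used besides as a filter.

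Mucins are large glycoproteins whose long stretches rich in serine, threonine and proline carry dense O-linked sugars. Muc2, Muc5ac, Muc5b and Muc6 are the secreted, gel-forming mucins. Muc2 builds the mucus layer of the colon and is made by goblet cells, Muc5ac and Muc6 are known from the stomach, and Muc5b from the airways and salivary glands. Muc1, Muc4, Muc13 and Muc20 are anchored in the cell membrane and form part of the glycocalyx on the apical surface of epithelia. TNFα is an inflammatory cytokine that signals largely through NF-κB.

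The 2 lists of H3K4me3 held 11552 peaks in wt and 11894 in wt+TNFα, with lowest −log10 q of 7.0 and 6.95. The 2 lists of H3K27me3 held 30594 and 60540 peaks and covered 4.12% and 9.26% of the autosomes, so a base was far more often under a peak in wt+TNFα. The lowest −log10 q in these 2 lists was 0.302 and 0.747, and the share of peaks at or above 2 was 12.8% and 19.5%. The study's reporting summary gives a q-value threshold for H3K27me3 peaks equal to a −log10 q of 2. Most listed peaks do not reach it. The H3K27me3 lists also differed on chromosome X, where 0.349% and 43.7% of the bases were covered, and H3K4me3 peaks on chromosome Y numbered 3 and 0. All 8 genes lie on autosomes, and the part of these differences in the results below was not tested. The labels give neither the sex of the animals nor whether both conditions came from the same animal. A difference between animals, their sex included, and an effect of TNFα therefore cannot be told apart in any comparison of wt with wt+TNFα. The epithelial label was checked on 8 marker genes of the colon epithelium, and an H3K4me3 promoter peak was found at 8 of them in wt, and at 7 in wt+TNFα. The marker without one in wt+TNFα was Krt20, a keratin of differentiated surface cells, with 22.0% of its promoter covered in wt. None of the 4 leukocyte, 2 endothelial and 4 stromal markers had an H3K4me3 promoter peak in either list. In such bulk chromatin, fewer cells that carry a mark and less of the mark per cell cannot be told apart.

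Promoter sequences of 6 of the 8 genes were read from the RefSeq promoter table (GRCm38.p6), which lacks Muc5ac and Muc5b. The 4 printed here cover the 250 bases before the start, 5′ to 3′, and stand for 4 of the 5 patterns described below, without that of no peak: Muc2 under H3K27me3 in both lists, Muc13 with H3K4me3 in both, and Muc1 and Muc20 with a mark called in wt alone. Capitals mark matches to any of 5 short motifs, searched on both strands. The motifs are TATAAA of the TATA box, found in 12.4% of 32841 promoter windows of the same length in the table, TTTATG of CDX factors (10.8%), CAGCTG, an E-box (13%), AGATAA of GATA factors (9.99%), and GGGNNTTTC, part of an NF-κB site (3.72%).
Muc2 promoter, chr7:141690090-141690339, plus strand: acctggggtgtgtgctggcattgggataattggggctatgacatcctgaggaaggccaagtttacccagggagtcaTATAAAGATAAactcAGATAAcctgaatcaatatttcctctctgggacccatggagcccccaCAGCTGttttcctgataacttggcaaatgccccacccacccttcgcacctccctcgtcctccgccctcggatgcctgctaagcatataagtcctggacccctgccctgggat
Muc13 promoter, chr16:33793787-33794036, plus strand: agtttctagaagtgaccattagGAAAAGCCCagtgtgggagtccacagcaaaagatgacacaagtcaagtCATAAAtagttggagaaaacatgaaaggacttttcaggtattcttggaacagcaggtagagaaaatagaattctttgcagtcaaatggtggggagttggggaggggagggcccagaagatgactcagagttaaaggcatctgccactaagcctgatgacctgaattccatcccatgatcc
Muc1 promoter, chr3:89228806-89229055, plus strand: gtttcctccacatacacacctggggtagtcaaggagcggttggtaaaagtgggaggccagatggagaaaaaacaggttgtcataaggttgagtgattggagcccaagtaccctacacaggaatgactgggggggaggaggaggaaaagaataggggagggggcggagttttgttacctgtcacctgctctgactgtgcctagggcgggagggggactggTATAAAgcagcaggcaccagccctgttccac
Muc20 promoter, chr16:32797436-32797685, minus strand: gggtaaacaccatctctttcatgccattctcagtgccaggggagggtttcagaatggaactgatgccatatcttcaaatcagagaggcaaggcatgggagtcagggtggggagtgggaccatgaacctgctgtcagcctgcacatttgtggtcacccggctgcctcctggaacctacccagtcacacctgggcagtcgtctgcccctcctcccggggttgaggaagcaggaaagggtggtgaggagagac

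Muc2 held 4 matches. TATAAA and AGATAA shared a base at 169 bases before the start, a second AGATAA lay from 159 to 154 bases before it, and CAGCTG from 112 to 107 bases before it. Muc1 and Muc4 held 1 TATAAA each, at 31 to 26 and at 36 to 31 bases before the start, which is where a TATA box is usually found. Muc13 had the CDX letters and the NF-κB letters on the minus strand, at 180 to 175 and at 228 to 220 bases before the start. Muc6 held 1 AGATAA, and Muc20 none of the 5 motifs. A match to such short letters is a description of the sequence and not a binding site. The windows at the first start held 0 CpG in Muc13, 1 in Muc4, 3 in Muc1 and Muc20, 4 in Muc2 and 5 in Muc6, against a median of 6.00 over all windows. A second RefSeq window of Muc13, whose start lies 452 bp further downstream, held 4. Of all windows 44.4% had fewer CpG than Muc6 and 37.8% fewer than Muc2, so these lay near the median.

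In wt, 2 of the 8 genes had an H3K4me3 promoter peak, Muc13 and Muc1. In wt+TNFα 1 had such a peak, Muc13. Among all genes the shares were 24.3% in wt and 24.7% in wt+TNFα, and among protein-coding genes 50.5% and 51.2%. H3K27me3 lay at the promoters of 4 genes in wt, Muc2, Muc4, Muc5ac and Muc20, and of 3 in wt+TNFα, Muc2, Muc4 and Muc5ac. The wt+TNFα call of Muc4 rested on 104 bp, and the count was 2 with promoters of 500 bp on each side, with an overlap of at least 200 bp, with 1 start per gene and with equal numbers of peaks. The background for H3K27me3 was 14.2% and 23.2% of all genes, and 21.7% and 29.5% of protein-coding genes. With only H3K27me3 peaks of −log10 q of at least 2, the counts among the 8 were 0 in wt and 1 in wt+TNFα. None of the 8 promoters carried both marks in the same list. Muc5b and Muc6 had neither mark in any list.

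**Figure D1:**
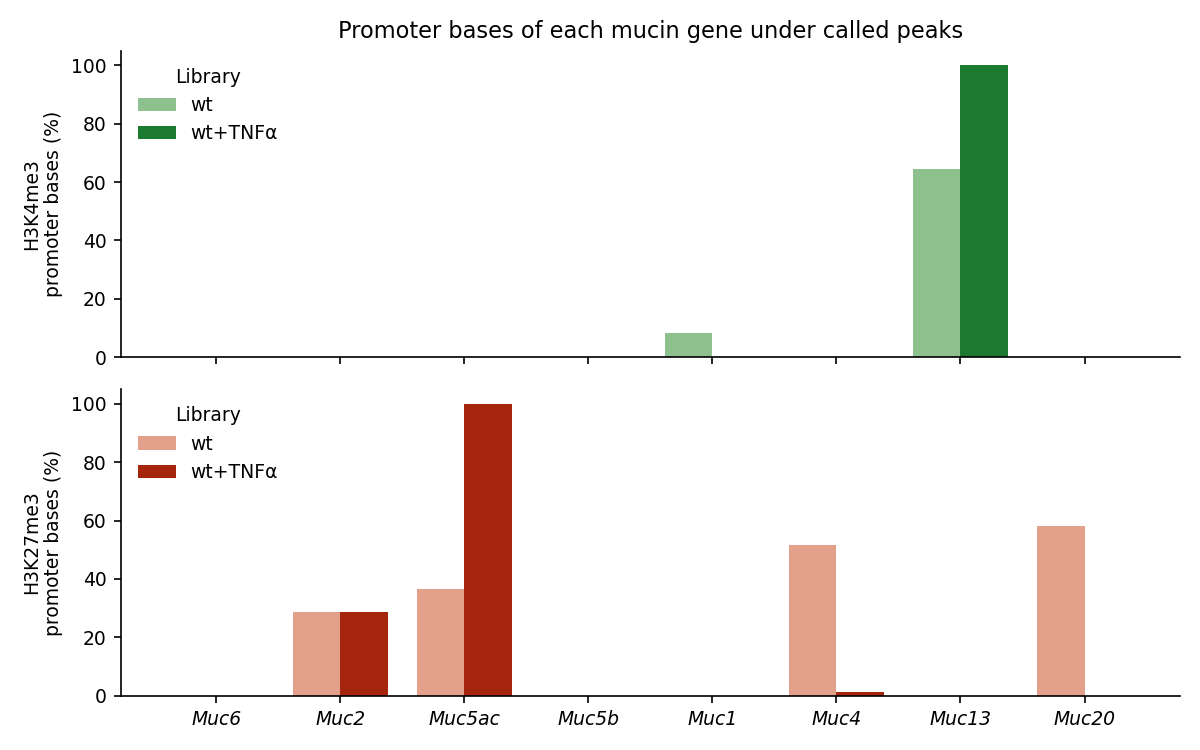
Share of promoter bases (%) of each mucin gene under H3K4me3 peaks (upper panel) and H3K27me3 peaks (lower panel), with a light bar for wt and a dark bar for wt+TNFα, 1 library each. H3K4me3 was called at Muc13 in both libraries and at Muc1 in wt alone, and the H3K27me3 cover of Muc5ac reached 100% in wt+TNFα while that of Muc20 was 0.

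The bases called in 1 condition and not in the other were then counted, as the study did by subtracting peak lists. A gain is at least 1 promoter base under a wt+TNFα peak that is under no wt peak, and a loss is the reverse. For H3K4me3, 1 of the 8 genes had a gain (Muc13, 827 bp) and 1 a loss (Muc1, 350 bp). Over all genes 19.4% had a gain and 9.95% a loss of H3K4me3, and over protein-coding genes 40.9% and 21.1%. For H3K27me3, 1 gene had a gain (Muc5ac, 1297 bp) and 2 had a loss (Muc4, 4364 bp, and Muc20, 1161 bp). The background was 17.1% with a gain and 3.39% with a loss over all genes, and 20.6% and 5.22% over protein-coding genes. Promoters with a peak in 1 condition and no covered base in the other were counted as well. An H3K4me3 promoter peak in wt alone was found at Muc1, as at 0.743% of protein-coding genes, and one in wt+TNFα alone at none of the 8, against 1.49%. An H3K27me3 promoter peak in wt alone was found at Muc20, as at 1.21% of protein-coding genes, and one in wt+TNFα alone at none of the 8, against 9.0%.

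The 4 secreted mucin genes lie next to each other on chromosome 7, from 141633456 to 141873084, a stretch of 239629 bp in which Muc6 is on the minus strand and Muc2, Muc5ac and Muc5b are on the plus strand. No H3K4me3 peak was listed anywhere in this interval in either list. The nearest such peaks lay over Ap2a2, which encodes an adaptor subunit of clathrin coats and flanks Muc6, and over Tollip, which encodes an adaptor of Toll-like receptor signalling and flanks Muc5b. They were 338 kb apart in both lists. The fold enrichment of the Ap2a2 peak was above 98.3% of its list in wt and 66.1% in wt+TNFα. That of the Tollip peak was above 58.2% and 78.1%. The lack of peaks within the interval therefore did not extend to its neighbours. Since the lists hold no H3K4me3 peak much below a −log10 q of 7, a weaker enrichment would not appear in them.

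H3K27me3 covered 50922 bp of the interval in wt, in 13 peaks, and 106174 bp in wt+TNFα, in 15 peaks. This is 21.3% and 44.3% of its length, which is 5.16 and 4.79 times the cover of the autosomes in the same list. The wt+TNFα cover was 2.09 times that in wt in this interval, 2.25 times over the autosomes and 2.33 times over chromosome 7. The larger cover in wt+TNFα was thus of about the size seen in the list as a whole. Of the wt bases of the interval 96.8% were also covered in wt+TNFα, against 86.5% over the autosomes. Only 1629 bp were covered in wt alone, and 56881 bp in wt+TNFα alone. The wt+TNFα list was also cut to its strongest autosomal peaks, up to the summed length of the wt list, which stayed whole. The cover of the interval was then 21.3% in wt and 9.14% in wt+TNFα. This cut can only lower the wt+TNFα value, so the order of these values says nothing about the interval.

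**Figure D2:**
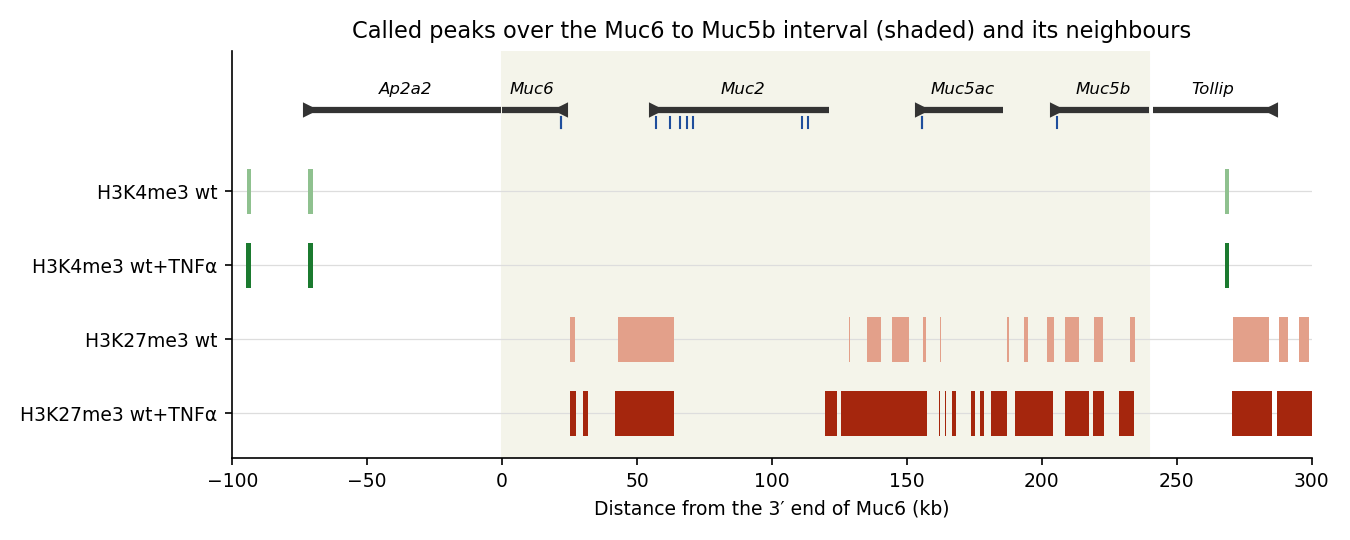
Peaks of the 4 lists (boxes, 1 row per list) by distance from the 3′ end of Muc6 (kb), with gene bodies as bars, their first starts as arrowheads and the transcript starts of the mucin genes as blue ticks. H3K4me3 peaks lie outside the shaded interval, and the H3K27me3 boxes of wt+TNFα overlie nearly all of those of wt and fill the stretch from the end of Muc2 to the start of Muc5ac.

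The cover differed between the segments of the interval. Muc6, from its first to its last base, was free of peaks in all 4 lists, as was the body of Ap2a2 for H3K27me3. The stretch between Muc6 and Muc2, 35020 bp in which both genes start and run apart, was covered to 45.1% in wt and 55.7% in wt+TNFα. The Muc2 gene was covered to 10.4% and 13%. Between Muc2 and Muc5ac the cover was 35.4% in wt and 95.2% in wt+TNFα, and between Muc5ac and Muc5b it was 22.3% and 78.2%. The Muc5ac gene was covered to 5.57% and 39.1%, and the Muc5b gene to 30.1% and 53.9%. So the segments on the Muc2 promoter side had similar cover in both lists, and the bases called in wt+TNFα alone lay mostly from the end of Muc2 onwards. The longest stretch with no H3K27me3 peak lay mostly over the body of Muc2, with 65145 bp in wt and 55969 bp in wt+TNFα. How much of it is assembled and mappable was not measured. Its lack of peaks, and the low cover of the Muc2 gene, therefore do not show a lack of the mark.

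**Figure D3:**
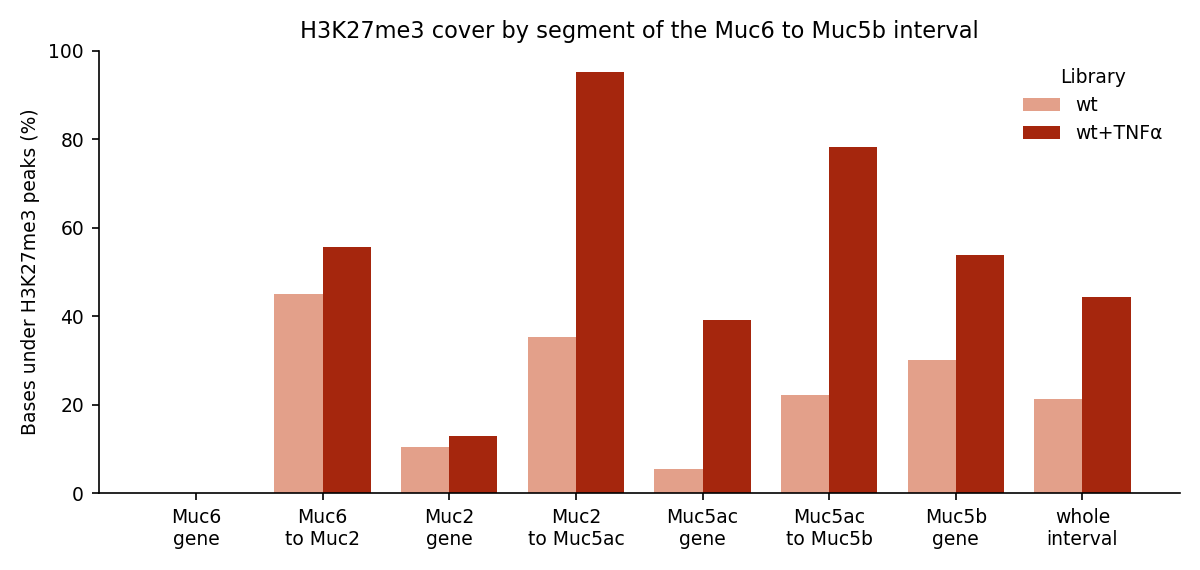
Share of bases (%) under H3K27me3 peaks in each gene body and each gap of the Muc6 to Muc5b interval and in the whole interval, in wt (light) and wt+TNFα (dark), 1 library each. The gap between Muc2 and Muc5ac reached 95.2% in wt+TNFα, and the Muc6 gene had no cover.

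Muc2, the main colonic gel-forming mucin, had no H3K4me3 peak nearer than 127 kb, at Ap2a2, in either list. It was overlain at its first start by the widest wt H3K27me3 peak of the interval. In wt this peak ran from 141676572 to 141697015, 20444 bp, wider than 98.5% of the peaks in its list, with a fold enrichment of 2.25 and a −log10 q of 1.38. In wt+TNFα it ran from 141675159 to 141697064, 21906 bp, wider than 96.5% of its list, with a fold enrichment of 2.21 and a −log10 q of 2.66. Both edges differed little between the lists, and the peak ended 6675 bp inside the gene in wt and 6724 bp in wt+TNFα. The first 2 of the 7 annotated starts were covered in full and the other 5 were bare, so 28.6% of the promoter bases were covered in each list. The promoter sequence printed above lies whole under this peak. GENCODE marks the Muc2 model as a fragmented locus, which bears on its internal starts.

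Muc5ac, a gastric and airway mucin, had 2 starts 39 bp apart. In wt 36.4% of its promoter was covered, by a peak of 1315 bp that began 297 bp downstream of the first start. That peak was among the weakest of its list, with a fold enrichment of 1.90 and a −log10 q of 0.395, above 1.33% of the listed peaks. In wt+TNFα the whole promoter was covered, by a peak of 31941 bp from 141759062 to 141791002, wider than 98.3% of its list, with a fold enrichment of 2.03 and a −log10 q of 1.78. In wt the same stretch held 3 further peaks upstream of the gene, of 377, 5342 and 6410 bp. The wide wt+TNFα peak thus spans what wt lists as separate pieces and the gaps between them. The gain at Muc5ac ended when whole peaks were subtracted and when only peaks with a −log10 q of at least 2 were kept. With equal covered length it was called as a loss instead, since its wt+TNFα peak was no longer kept.

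Muc5b and Muc6 had no promoter base under either mark. The Muc5b gene body, in contrast, held 3 H3K27me3 peaks in each list, the widest of 5111 bp in wt and 8834 bp in wt+TNFα, and a peak ended 1241 bp upstream of its start in wt and 1667 bp upstream in wt+TNFα. The nearest H3K27me3 peak of Muc6 lay 3184 bp upstream of its start in wt and 3286 bp in wt+TNFα. Both genes are thus bare at the start with H3K27me3 peaks a few kilobases away.

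The H3K27me3 peaks of the interval had low −log10 q, like most of their lists. In wt they lay between 0.395 and 1.38, above 1.33% to 79.6% of the list, and none of the 13 reached 2. In wt+TNFα they lay between 0.835 and 2.66, above 7.06% to 89.7% of the list, and 1 of the 15 reached 2. The highest in each list was the peak at Muc2. The fold enrichments lay between 1.90 and 2.25 in wt and between 1.74 and 2.21 in wt+TNFα, around the medians of 2.1 and 1.90 of the whole lists. A stronger domain lay outside, over Brsk2, a kinase gene beyond Tollip, with a fold enrichment of 3.43 and 2.84 and a −log10 q of 6.93 and 6.82. Counting only peaks with a −log10 q of at least 2, the interval was covered to 0% in wt and 9.14% in wt+TNFα. Muc2 was then the single gene of the 8 with an H3K27me3 promoter peak, in wt+TNFα alone, which counts as a gain. A fixed −log10 q is not the same cut in both lists, whose medians were 0.779 in wt and 1.34 in wt+TNFα.

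**Figure D4:**
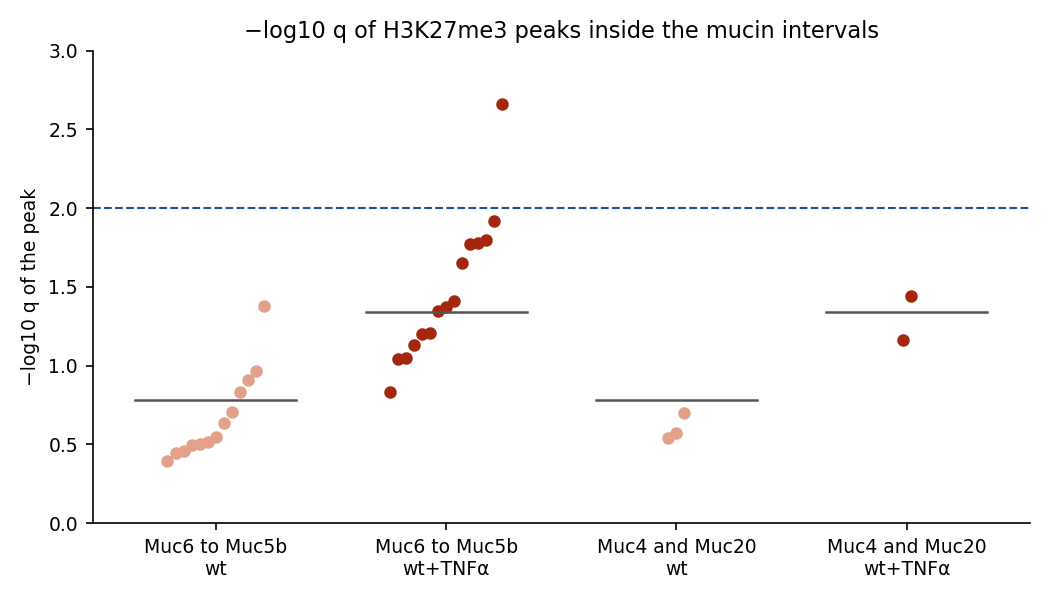
−log10 q of each H3K27me3 peak inside the Muc6 to Muc5b interval and the interval of Muc4 and Muc20, by library, with a grey line at the median of the whole list and a dashed line at 2. Among these peaks only that at Muc2 in wt+TNFα, at 2.66, lies above the dashed line.

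Of the membrane mucins, Muc13 stood apart. It encodes a transmembrane mucin abundant on the intestinal epithelium, and it was the single gene of the 8 with an H3K4me3 peak in both lists. In wt the peak ran on chromosome 16 from 33793864 to 33798872, 5009 bp, with a fold enrichment of 30.4 and a −log10 q of 174. In wt+TNFα it ran from 33792917 to 33799030, 6114 bp, with 34.1 and 217. It was wider than 99.3% and 99.5% of the peaks of its list, while its fold enrichment was above 64.6% and 68.9% of them. The peak was thus unusual for its width and not for its height. It lay mostly inside the gene, from 173 bp before to 4835 bp after the first start in wt, and from 1120 bp before to 4993 bp after it in wt+TNFα. Counting the exons and introns of all genes there, the antisense gene Gm15657 included, 1063 bp of the wt peak were exonic and 3946 bp intronic.

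The Muc13 peak also differed between the lists. Its width in wt+TNFα was 1.22 times that in wt, against a median of 1.07 over 10953 peaks matched 1 to 1, of which 84.5% had a smaller ratio. Among the 667 matched peaks of at least 3000 bp in wt the median was 1.03, and 95.5% had a smaller ratio. Most of the extension lay upstream of the start, so 64.5% of the promoter was covered in wt and all of it in wt+TNFα. This gain ended when whole peaks were subtracted or peaks were extended by 1000 bp before subtraction. A second peak of 1480 bp, from 33799450 to 33800929, was listed in wt+TNFα and not in wt, with a fold enrichment of 9.18 that was above 12.4% of its list. With both peaks, 18.7% of the gene was covered in wt and 25% in wt+TNFα. No H3K27me3 was listed at the promoter or in the gene. The antisense gene Gm15657 has its promoter under the same peak, and the mark of the pair cannot be told apart. The next H3K4me3 peak downstream was that of Itgb5, an integrin subunit gene, with 1270 bp and 1343 bp.

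The Muc13 peak was poor in CpG, with 8.98 CpG per kilobase in wt, lower than all but 1.42% of the wt H3K4me3 peaks, whose median was 54.0. In wt+TNFα it had 9.98, with 1.77% of peaks lower. Its highest point lay 1081 bp downstream of the first start in wt and 804 bp downstream in wt+TNFα. At Muc1 the peak was nearer to the usual, with 34.3 CpG per kilobase and 17.2% of peaks lower. The 201 bases around the summits in wt, read from GRCm38, show this difference, with each CpG in capitals: 1 in Muc13, which lies in an intron, and 9 in Muc1, outside any gene.
Muc13 wt summit, chr16:33795018-33795218, plus strand: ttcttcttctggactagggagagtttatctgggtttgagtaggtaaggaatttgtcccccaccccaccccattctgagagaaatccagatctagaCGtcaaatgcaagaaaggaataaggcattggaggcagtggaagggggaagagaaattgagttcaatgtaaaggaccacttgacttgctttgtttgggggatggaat
Muc1 wt summit, chr3:89228523-89228723, plus strand: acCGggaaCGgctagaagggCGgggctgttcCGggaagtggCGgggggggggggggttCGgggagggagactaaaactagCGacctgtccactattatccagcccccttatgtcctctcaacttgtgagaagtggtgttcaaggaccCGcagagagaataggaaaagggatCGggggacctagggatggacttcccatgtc

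Muc1, a widely expressed epithelial mucin, had a small H3K4me3 peak in wt and none in wt+TNFα. The wt peak spanned 350 bp on chromosome 3, from 89228385 to 89228734, and lay 672 to 323 bp upstream of the first start. The start itself and the 250 bases before it, printed above, were not covered. Its fold enrichment was 5.74, above 3.26% of the list, and its −log10 q 14.4, above 3.13%. Of the 364 wt peaks with a −log10 q no higher than this, 136 (37.4%) had no overlapping peak in wt+TNFα, compared with 380 (3.29%) of all 11552 wt peaks. Peaks this weak were thus often listed in 1 library alone. The nearest H3K4me3 peak in wt+TNFα lay 14.4 kb upstream, over Mtx1 and Thbs3. The loss ended when peaks below the median −log10 q were left out. H3K27me3 peaks ended 1464 bp upstream of the start in wt and 1528 bp upstream in wt+TNFα, so this mark did not reach the promoter or the gene in either list.

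Muc4 and Muc20 lie tail to tail on chromosome 16, with Muc4 on the plus strand, Muc20 on the minus strand, and an overlap of their 3′ parts. Muc4 encodes a membrane mucin that binds the receptor ErbB2, and Muc20 a membrane mucin of the kidney and gut. Neither gene had an H3K4me3 peak. The nearest to the Muc4 start lay over Tnk2, 61.0 kb upstream in wt and 60.7 kb in wt+TNFα. The nearest to the Muc20 start lay over Rubcn, 69.9 kb upstream in wt and 70.1 kb in wt+TNFα. The 61550 bp from the Muc4 start to the Muc20 start were covered by H3K27me3 to 22.5% in wt and 8.54% in wt+TNFα. This runs against the lists as a whole, in which the cover was larger in wt+TNFα. Of the wt bases 37.9% were also covered in wt+TNFα, against 86.5% over the autosomes, and no base was covered in wt+TNFα alone. Upstream of Muc4, a peak of 7011 bp in wt and 10138 bp in wt+TNFα lay at about the same place, so the smaller cover did not extend to that neighbouring stretch.

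At Muc4 the covered starts were internal ones. The first 2 of the 7 starts had no peak in either list. In wt the starts 40397, 40476 and 41651 bp downstream of the first were covered in full, that at 42736 bp to 79.1% and that at 20450 bp to 27.3%. In wt+TNFα the first pair of these were covered to 5.20% and 1.25% and the other 3 not at all. The promoter share was thus 51.6% in wt and 1.2% in wt+TNFα. With the first start alone taken per gene, Muc4 had no loss. The wt peak over the internal starts ran from 32773251 to 32779203, 5953 bp, with a fold enrichment of 2.02 and a −log10 q of 0.575, above 30.5% of the list. The wt+TNFα peak within it spanned 1435 bp.

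At Muc20 the single start was covered in wt and bare in wt+TNFα. The wt peak ran from 32790469 to 32797595, 7127 bp, and reached 160 bp upstream of the start, so 58.0% of the promoter was covered. In wt+TNFα a peak of 3821 bp lay inside it, 1726 to 5546 bp downstream of the start, and the promoter was at 0%. The fold enrichment was 2.09 in wt and 1.93 in wt+TNFα, and the −log10 q 0.698, above 42.9% of its list, and 1.44, above 57.0%. The difference is therefore one of the peak's edges, in a domain that both lists hold. The losses at Muc4 and Muc20 ended when peaks were restricted to those above the median −log10 q or to a −log10 q of at least 2. The loss at Muc4 also ended with 1 start per gene, and that at Muc20 when whole peaks were subtracted, since its wt peak overlaps a wt+TNFα peak.

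**Figure D5:**
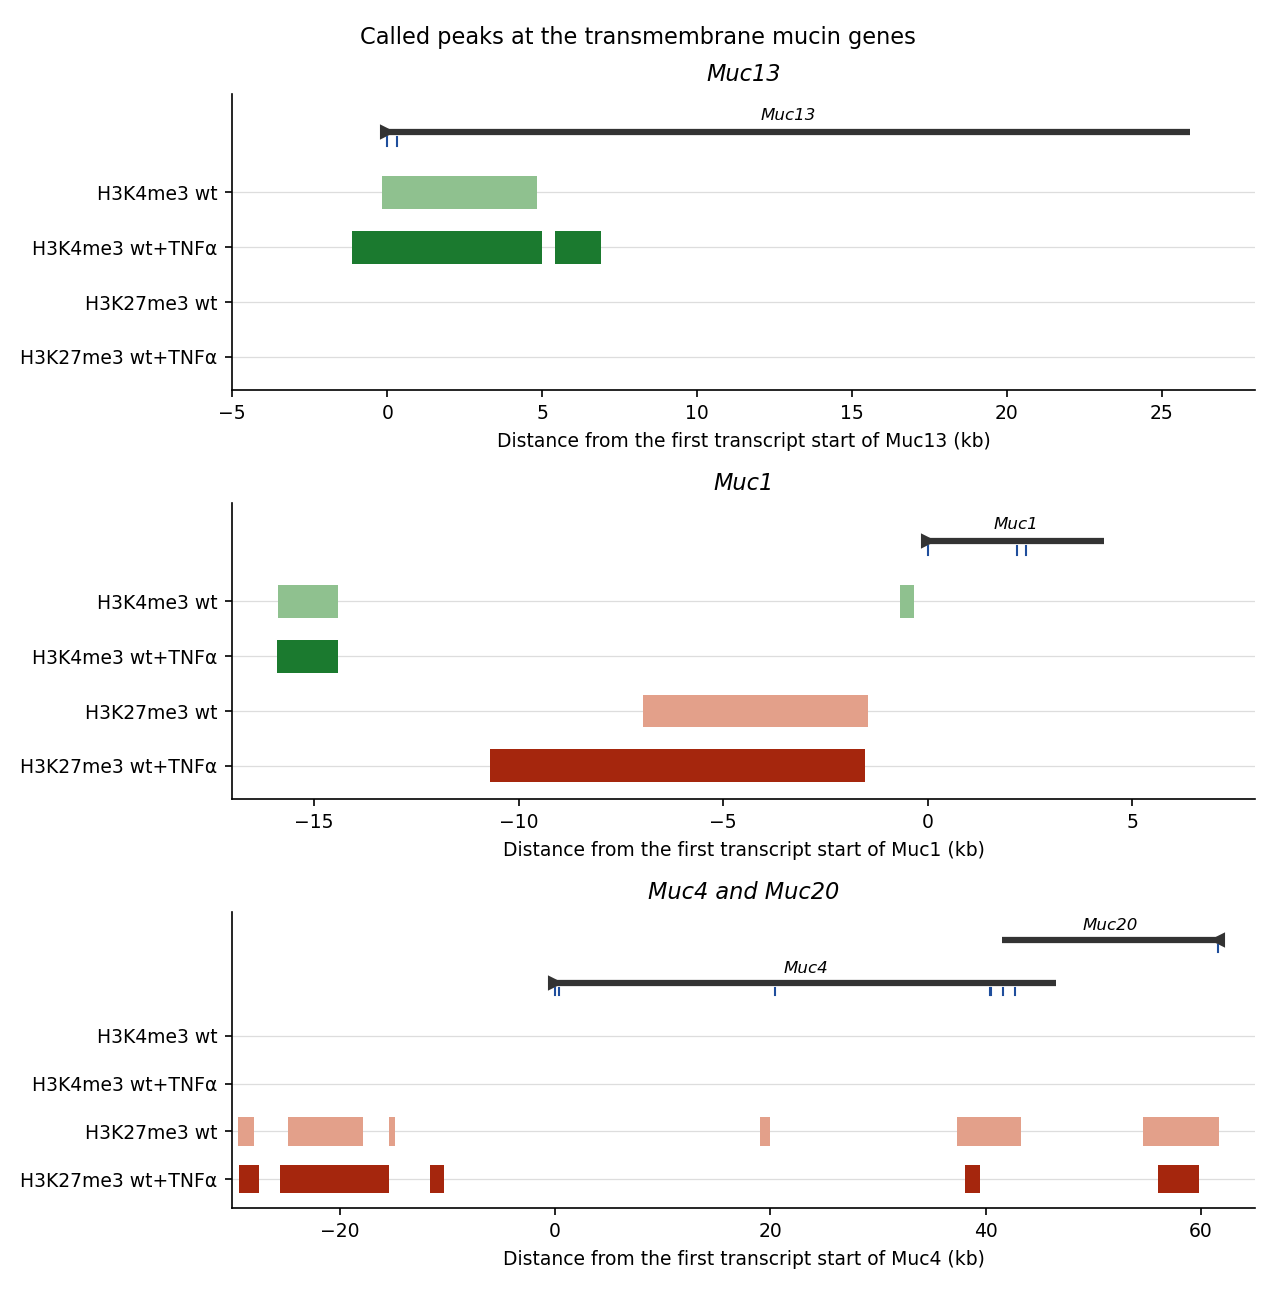
Peaks of the 4 lists (boxes) around Muc13, Muc1, and Muc4 with Muc20, by distance from the first transcript start of Muc13, Muc1 and Muc4 (kb), with gene bodies as bars, arrowheads at the first starts and blue ticks at all starts. The Muc13 H3K4me3 peak of 5009 bp in wt is 6114 bp in wt+TNFα, the Muc1 peak of 350 bp is in wt alone, and the H3K27me3 boxes over Muc4 and Muc20 are smaller in wt+TNFα.

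By the pattern of promoter peaks in the 4 lists, the 8 genes fell into 5 classes. Muc13 shared its pattern, H3K4me3 in both and no H3K27me3, with 42.4% of protein-coding genes. Muc2, Muc4 and Muc5ac shared theirs, H3K27me3 in both and no H3K4me3, with 15.1%. For Muc4 this pattern rests on 104 bp in wt+TNFα, as given above. Muc5b and Muc6, with no peak, shared theirs with 26.3%. The 2 rare patterns were those of Muc1, H3K4me3 in wt alone, at 0.196%, and of Muc20, H3K27me3 in wt alone, at 0.493%.

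Of 14 other mucin or mucin-like genes, 11 were in the annotation under the name used, and none of the 11 had an H3K4me3 promoter peak. Muc3, Muc15, Muc16, Muc19, Emcn, Mucl1, Mucl2, Ovgp1 and Prg4 had no peak of either mark, like Muc5b and Muc6. Mucl3 had H3K27me3 in both lists, like Muc2, over 100% of its promoter in wt and 93.5% in wt+TNFα. Muc3a, a membrane mucin of the intestine, had an H3K27me3 promoter peak in wt+TNFα alone, over 79.4% of the promoter, with a fold enrichment of 2.73 and a −log10 q of 5.31. Its gene body was covered to 44.2% in wt and 100% in wt+TNFα, so the domain was present in both lists.

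Genes whose products act with mucins were counted in the same way. Of 12 partners of goblet cell mucus, 3 had an H3K4me3 promoter peak in both lists. Among protein-coding genes the share was larger, 50.5% in wt and 51.2% in wt+TNFα. The genes were Agr2, a disulfide isomerase needed for mucin folding, and Atoh1, the transcription factor of secretory cells. Ern2, a stress sensor of the endoplasmic reticulum in goblet cells, was the other. Atoh1 had H3K27me3 at its promoter in both lists as well. H3K27me3 was at 4 of the 12 in wt and 6 in wt+TNFα, where the share of protein-coding genes was also larger in wt+TNFα (21.7% and 29.5%). By base, 3 of the 12 had a gain and 3 a loss, against 20.6% and 5.22% of protein-coding genes. Spdef, a transcription factor of goblet cells, had both, with 823 bp lost and 1217 bp gained, and its promoter was covered to 17.5% in wt and 25.9% in wt+TNFα. The other 2 losses were at Zg16, a lectin-like protein of goblet cells, with 37.3% of its promoter covered in wt and 4.77% in wt+TNFα, and Atoh1 with 66.9% and 44.2%. The 2 with a promoter peak in wt+TNFα alone were Tff2, a trefoil peptide of the stomach, covered over its whole promoter, and Fcgbp, a mucus protein that binds Muc2, over 2.72%. The gene body of Fcgbp was covered to 11.5% in wt and 6.34% in wt+TNFα. An H3K4me3 promoter peak was found at 8 of 12 enzymes of mucin glycosylation in wt, and at 9 in wt+TNFα, against 50.5% and 51.2% of protein-coding genes. The additional one was Gcnt1, which makes branched O-glycans. Its promoter had H3K27me3 over 23.9% in wt against 0% in wt+TNFα. H3K4me3 covered 0% in wt and 12.9% in wt+TNFα, with a fold enrichment of 15.9. C1galt1c1, the chaperone of the core O-glycan enzyme, had H3K27me3 in wt+TNFα alone, over its whole promoter. It lies on chromosome X, of which H3K27me3 peaks covered 0.349% in wt and 43.7% in wt+TNFα.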

How the data were processed

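ChIP-seq of H3K4me3 and H3K27me3 in colonic organoids gave 6 libraries, 1 per condition for each mark and for the input. The lists give no read number per peak, and the libraries of the 2 conditions were not sequenced to equal depth for the input and H3K4me3. After trimming with fastp, the authors mapped reads to GRCm38 (mm10) by bwa-mem (BWA 2.2), took out duplicates with SAMtools (1.11) and blacklisted regions, and called narrow H3K4me3 and broad H3K27me3 peaks with MACS2 against the input of the same condition. The submitters' processing notes give MACS2 2.1.0, while the reporting summary names another version. The deposited fold enrichment is a ratio of ChIP signal to local background, and the deposited p-values and q-values are on a −log10 scale. The integer score that the authors deposited for display was not used. File labels mention a spike-in for every list except wt+TNFα H3K27me3, and the methods name none.

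Coordinates were made 1-based, and peaks of a list were merged. GENCODE genes (55450 genes, 55341 symbols, 141767 transcripts) were assigned by 1 bp of overlap with a promoter, defined as 1000 bp to either side of each transcript start. A gain or loss is a base called in one condition and not in the other. Backgrounds were computed over all 55341 symbols and over 21924 protein-coding genes. The promoter gain and loss calls, the subtraction of intervals and the count of covered bases were tested on simulated peaks. The other steps were not tested in this way. The named genes are the 8 mucins, genes under the same promoter peak or overlapping a member, neighbours of the interval, other mucins, and genes of the other lists with a peak in one condition alone. Genes that show the extent of a neighbouring domain or nearest peak (Brsk2, Itgb5, Tnk2, Rubcn, Mtx1, Thbs3) were named after their values were seen. So were the mucus partners with H3K4me3 in both lists or a loss of H3K27me3. The members and lists were chosen with earlier results of these data known. Sequences came from the RefSeq promoter table (GRCm38.p6) and the GRCm38 genome. Protein sequences were not analysed here. Calculations used Python 3.11.15 and numpy 2.4.6, and plots matplotlib 3.10.9. The number of columns that could not be assigned to a sample was 0.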

Additional observations from a re-analysis of the deposited data

How the results depend on the processing

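Of 100 values of the main results under the alternative settings, 25 moved, a count by over 1.5 times or a share beyond its 95% binomial interval. Values that a setting had no way to change, such as H3K4me3 under a filter on H3K27me3 peaks, are among the other 75, so these are no measure of stability. With only the stronger peaks of each list (−log10 q above its median), genes with an H3K4me3 promoter peak in wt numbered 1, those with H3K27me3 in wt 1, those with a loss of H3K4me3 0 and those with a loss of H3K27me3 0, and the interval was covered by H3K27me3 to 14.3% in wt and 40.8% in wt+TNFα. With H3K27me3 peaks of −log10 q of at least 2, the promoter counts were 0 in wt and 1 in wt+TNFα, the losses 0, and the interval 0% and 9.14%. The count of H3K27me3 gains stayed at 1, but the gene was Muc2 (4002 bp) and no longer Muc5ac. Genes with H3K27me3 in wt+TNFα numbered 2 with promoters of 500 bp, equal numbers of peaks, 1 start per gene, a minimum overlap of 200 bp or peaks above the median. Promoters of 2000 bp on each side gave 6 genes with H3K27me3 in wt and 6 in wt+TNFα, 2 gains and 4 losses. Subtraction of whole peaks gave 0 gains of H3K4me3, 0 gains of H3K27me3 and 1 loss of H3K27me3. Extending peaks by 1000 bp before subtraction gave 0 gains of H3K4me3, and 1 start per gene gave 1 loss of H3K27me3. Equal numbers of peaks gave an interval cover of 40.8% in wt+TNFα, and an interval extended by 10000 bp on each side gave 19.6% in wt and 40.9% in wt+TNFα. Equal covered autosomal length, chosen after the data were seen, shortened the wt+TNFα H3K27me3 list alone and gave 1 gene with H3K27me3 in wt+TNFα, 0 gains of H3K27me3, and 9.14% of the interval in wt+TNFα. The share of the interval under H3K4me3 was also 0% with the interval extended, the one setting run on it that does not merely remove peaks or leave H3K4me3 untouched. The cause of these differences was not tested.

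No paired analysis was possible because each mark has 1 library per condition and the results come from no test. For the same reason leaving out libraries in turn was not done. Depth per peak is unknown, so a missing peak shows that none was called and not that the mark is absent.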
